A study of Mus musculus with 4 samples.

Results

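The 10 genes described here carry the signal of leukaemia inhibitory factor (LIF) from the cell surface to the nucleus, and were taken by their symbols from the 24026 genes measured in F123-ESCs. They are the ligand Lif, the receptor chains Lifr and Il6st, the Janus kinases Jak1, Jak2 and Tyk2, the transcription factor Stat3, the phosphatase Ptpn11, the feedback inhibitor Socs3 and the kinase Pim1. All 10 had a value in each of the 8 columns of the table, which holds an RPKM (reads scaled to gene length and to the total of reads) for the S129 and for the CAST allele in 4 libraries, and all 10 passed the filter of at least 1 RPKM summed over the means of the alleles.

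F123-ESCs are a male line of mouse embryonic stem cells (ESCs) from a cross of the strains S129 and CAST, with the S129 copy of each autosome from the mother and the CAST copy from the father. The only group is untreated F123-ESCs with no engineered allele, replicates 1 to 4, so that the design allows a comparison between the alleles within a library and a comparison of levels between genes, but none between conditions. The cells were grown on feeder fibroblasts in medium with serum replacement and 1000 U/ml of LIF, were then kept on gelatin without feeders for at least 2 passages, and were harvested after about 48 h. LIF was therefore given to all 4 libraries and no library without LIF was analysed here. A single line of a single cross was measured, so that the strain of an allele and the parent it came from cannot be told apart.

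In ESCs, LIF binds the receptor chain encoded by Lifr, which pairs with gp130, the signal-transducing chain encoded by Il6st. Janus kinases bound to both chains then phosphorylate them and the transcription factor STAT3, which enters the nucleus. There STAT3 turns on genes that hold mouse ESCs in a self-renewing state, as well as Socs3, whose protein binds gp130 and blocks the pathway. SHP2, the phosphatase encoded by Ptpn11, binds the same site on gp130 and links the receptor to the Ras and ERK branch.

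The values were made from polyA RNA sequenced with paired reads of 150 bp, and only reads that cover a SNP between the strains enter them. A level compared between genes thus depends also on the number of SNPs in each gene. The reads behind the RPKM could be recovered, with totals between 16716721 and 28772351 for an allele in a library, the lowest of each allele being in replicate 4. All 8 embryonic stem cell markers examined were detected, at means from 29.5 to 7111 RPKM. Of 12 fibroblast markers, none was at 0, and their summed RPKM was 495, 575, 589 and 526 in replicates 1 to 4, and 281, 324, 326 and 297 with all annotated exons as the length. Of this sum, Acta2 gave a mean of 340 RPKM and Col1a2 of 166 RPKM (275 and 11.3 RPKM with all exons). Postn had 15.4 RPKM, Col3a1 11.4 RPKM and Col1a1 5.68 RPKM (5.52, 3.68 and 5.14 RPKM with all exons). Of the 12, 3 were under 1 RPKM, with Lum at 0.046 RPKM, and 5 were under 1 RPKM with all exons. Of 7 primitive endoderm markers, none was at 0 either, and their summed RPKM ran from 46.9 to 53.9, of which Dab2 gave a mean of 44.2 RPKM over a length of 642 bp. With all exons the sum ran from 6.76 to 7.47, and 6 of the 7 were under 1 RPKM. The share of feeder or differentiated cells in these libraries was not tested, and in bulk RNA fewer cells of a type and less RNA per cell cannot be told apart.

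The ligand was measured at a low level from both alleles. Lif (ENSMUSG00000034394, mm10 chr11:4257557-4272514, plus strand) encodes the cytokine that is also supplied in the medium. The S129 allele of Lif had 2.81, 2.71, 2.94 and 2.97 RPKM in replicates 1 to 4. The CAST allele had 2.70, 3.16, 3.24 and 2.39 RPKM in the same order. The alleles overlapped, with S129 higher in 2 libraries and CAST higher in 2. The fitted difference, S129 minus CAST on the log2(RPKM+0.1) scale, was 0.0014 with an SE of 0.098 (95% interval -0.31 to 0.31, adjusted p = 0.991 by limma). These values rest on 161 to 325 reads per allele and library. Both genes beside Lif were higher from CAST, with a difference of -0.39 for Osm (SE 0.088, adjusted p = 0.0176 by limma), which encodes the related cytokine oncostatin M, and of -0.77 for Hormad2 (SE 0.088, adjusted p = 0.00215 by limma).

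Lifr, the LIF-specific receptor chain (ENSMUSG00000054263, mm10 chr15:7090614-7197489, plus strand), was higher from S129. The S129 allele had 223.9, 208.3, 226.8 and 199.4 RPKM in replicates 1 to 4. From CAST, the values were 146, 152, 163 and 146 RPKM in the same order. No CAST value reached the lowest S129 value. S129 minus CAST came to 0.50 with an SE of 0.043, a 1.41-fold excess of S129 (adjusted p = 0.000881 by limma), and S129 was higher in 4 of 4 libraries. S129 gave 61.3%, 58.8%, 59.1% and 58.6% of the 20157 Lifr reads by library, and the exact 95% Clopper-Pearson interval of the lowest share, 57.0% to 60.3%, did not reach 50%. Neither of the genes beside Lifr passed the filter on low values. The neighbour Osmr had 0.204 RPKM with 49.3% of its 209 reads from S129, and Egflam had 0.18 RPKM.

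The level of Lifr depends on the length by which its reads were divided. The deposited values gave whole reads for a length of 577 bp, which is that of Lifr-208, the transcript the GENCODE M21 annotation lists ahead of the others. Lifr-208 has 5 exons, starts at position 7090614 of chromosome 15, and is annotated with its end not found. The 8 annotated transcripts of Lifr run from 299 to 9655 bp, and all their exons together cover 10776 bp, 18.7 times the length used. Divided by all exons, the mean level of Lifr was 9.81 ± 0.494 RPKM in place of 183 ± 9.22 RPKM (SD, n = 4). Over which exons the reads were counted is not given in the sources used here, so that neither level can be preferred. The length cancels in the comparison of the alleles. Of 13337 genes tested with a recovered length, 3.82% had exons covering at least 10 times the length used, and the median over these genes was 1.41 times.

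RefSeq (GRCm38.p6) holds starts of Lifr at positions 7129572 and 7140542, which lie 39.0 kb and 49.9 kb downstream of the start of Lifr-208. The 250 bases before each of these starts are shown because the length used for Lifr belongs to a transcript that begins elsewhere, and because these upstream sequences differ in their CpGs. Both are on the plus strand, chr15:7129322-7129571 and chr15:7140292-7140541, with each CpG in capitals.
Lifr upstream of 7129572: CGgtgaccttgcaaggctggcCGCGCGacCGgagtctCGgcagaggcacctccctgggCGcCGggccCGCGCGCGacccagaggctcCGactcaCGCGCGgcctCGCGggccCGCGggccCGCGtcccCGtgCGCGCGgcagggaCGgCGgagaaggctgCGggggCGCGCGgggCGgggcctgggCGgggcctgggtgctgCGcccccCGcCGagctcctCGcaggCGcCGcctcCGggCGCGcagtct
Lifr upstream of 7140542: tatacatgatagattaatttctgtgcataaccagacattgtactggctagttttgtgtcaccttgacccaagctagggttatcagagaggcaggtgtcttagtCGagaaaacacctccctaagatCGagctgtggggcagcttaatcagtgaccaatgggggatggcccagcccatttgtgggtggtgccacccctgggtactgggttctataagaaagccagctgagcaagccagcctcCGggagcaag
The upstream window of the start at 7129572 holds 43 CpGs and is 82.4% G and C, and 0.539% of the 32851 RefSeq windows of the same length hold more CpGs. The window of the start at 7140542 holds 3 CpGs, against a median of 6 over all windows, and is 50.8% G and C. The RPKM are 1 value per gene and do not separate transcripts by their start.

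Il6st encodes gp130, the chain shared by the receptors of the interleukin-6 family (ENSMUSG00000021756, mm10 chr13:112464070-112510086, plus strand). From S129, Il6st had 10.3, 11.4, 11.6 and 10.7 RPKM in replicates 1 to 4. From CAST it had 10.7, 11.9, 12.2 and 10.2 RPKM. CAST was higher in replicates 1 to 3 and S129 in replicate 4, and the ranges overlapped. The difference was -0.03 with an SE of 0.039 (95% interval -0.16 to 0.09, adjusted p = 0.521 by limma). Lifr stood at 16.5 ± 0.902 times Il6st on the deposited scale and at 1.13 ± 0.0618 times Il6st with all exons (SD, n = 4). On the latter scale Lifr was above Il6st in 4 of 4 libraries, by 1.21 times at most.

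**Figure D1:**
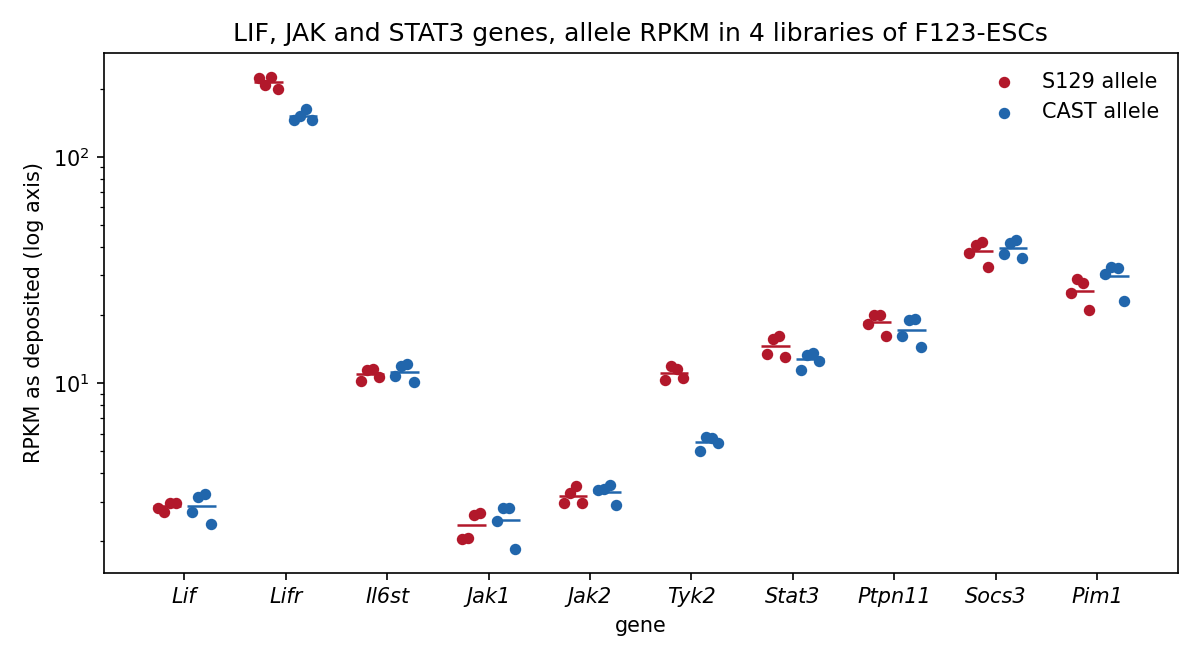
RPKM as deposited of the S129 allele (red) and the CAST allele (blue) of each gene, on a log axis, where each point is a library in the order of replicates 1 to 4 and each line is the mean of the 4 libraries. The alleles of Tyk2 and of Lifr do not overlap, with Tyk2 at a mean of 11.1 RPKM from S129 and 5.49 RPKM from CAST.

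Of the Janus kinases, Tyk2 differed between the alleles and Jak1 and Jak2 did not pass the test. Tyk2 (ENSMUSG00000032175, mm10 chr9:21104068-21131243, minus strand) is a kinase of this family that associates with gp130 and with the interferon receptor. Its S129 allele had 10.4, 11.9, 11.6 and 10.6 RPKM in replicates 1 to 4. Its CAST allele had 5.01, 5.80, 5.73 and 5.42 RPKM. The lowest S129 value lay well above the highest CAST value. The fitted difference was 1.00 with an SE of 0.032, a 2.01-fold excess of S129 (adjusted p = 4.5e-05 by limma), with S129 higher in 4 of 4 libraries.

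S129 gave 68.2%, 68.2%, 67.7% and 67.0% of the Tyk2 reads in replicates 1 to 4, and the exact 95% Clopper-Pearson intervals of these shares lay between 64.3% and 70.2%. They rest on 1223 to 1991 reads per library. Of 12869 autosomal genes tested, 6.74% had a larger S129 excess than Tyk2 and 15.4% had a larger one than Lifr. The genes on either side of Tyk2 did not pass the test. Raver1 had a difference of 0.24 with an SE of 0.093 (adjusted p = 0.0777 by limma) and Cdc37 of 0.01 with an SE of 0.033 (adjusted p = 0.883 by limma). The antisense gene 1700084C06Rik overlaps Tyk2 over 24326 bp and is not among the genes of the table used here. The library kit keeps strand, but the setting used for counting is not given in the sources used here, so that reads of Tyk2 and of its antisense partner cannot be told apart with certainty.

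Jak1 (ENSMUSG00000028530, mm10 chr4:101152367-101265282, minus strand), the kinase most closely tied to gp130 signalling, had the lowest mean RPKM of the 10 genes. From S129, Jak1 had 2.06, 2.07, 2.62 and 2.67 RPKM in replicates 1 to 4. From CAST it had 2.47, 2.80, 2.80 and 1.85 RPKM. CAST was higher in replicates 1 to 3, while in replicate 4 S129 gave 60.0% of 380 reads. The fitted difference was -0.07 with an SE of 0.168 (adjusted p = 0.757 by limma), and its 95% interval of -0.60 to 0.47 was the widest of the 10 genes. Among the 10 genes the fewest reads of any value, 152, were those of the CAST allele of Jak1 in replicate 4.

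Jak2 (ENSMUSG00000024789, mm10 chr19:29251828-29313080, plus strand), a kinase also used by hormone and haematopoietic cytokine receptors, lay between Jak1 and Tyk2. The S129 allele had 2.96, 3.28, 3.53 and 2.96 RPKM in replicates 1 to 4. The CAST allele had 3.37, 3.42, 3.54 and 2.90 RPKM. The ranges overlapped, and the fitted difference was -0.05 with an SE of 0.047 (95% interval -0.21 to 0.10, adjusted p = 0.364 by limma). Within a library, the level of Tyk2 was 3.44 ± 0.192 times that of Jak1 on the deposited scale and 3.28 ± 0.183 times with all exons (SD, n = 4). Tyk2 was 2.56 ± 0.149 times Jak2 on the deposited scale and 1.66 ± 0.0963 times with all exons (SD, n = 4).

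Stat3 (ENSMUSG00000004040, mm10 chr11:100885098-100939540, minus strand), the transcription factor at the end of the cascade, was slightly higher from S129. The S129 allele had 13.5, 15.7, 16.1 and 13.0 RPKM in replicates 1 to 4. The CAST allele had 11.5, 13.3, 13.6 and 12.6 RPKM. S129 was higher within each library, though the ranges of the alleles overlapped. The fitted difference was 0.19 with an SE of 0.048, a 1.14-fold excess (adjusted p = 0.0258 by limma). S129 gave 54.9%, 55.1% and 55.1% of the reads in replicates 1 to 3, and 51.8% in replicate 4, where the exact 95% Clopper-Pearson interval of 49.9% to 53.8% reached 50%. Without replicate 1, 2 or 3 the difference was no longer called (adjusted p = 0.0923, 0.0974 and 0.0968 by limma). The 3′ end of Stat3 overlaps that of Stat5a by 72 bp. Stat5a had a difference of -0.06 (SE 0.095, adjusted p = 0.635 by limma), and Cavin1, on the other side of Stat3, was higher from CAST (-0.24, SE 0.032, adjusted p = 0.00327 by limma).

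Ptpn11 (ENSMUSG00000043733, mm10 chr5:121130533-121191397, minus strand), which encodes SHP2, had the smallest of the called differences. The S129 allele had 18.3, 20.1, 20.1 and 16.2 RPKM in replicates 1 to 4. The CAST allele had 16.2, 19.0, 19.2 and 14.4 RPKM. S129 was higher in each library and the ranges overlapped. The fitted difference was 0.12 with an SE of 0.037, a 1.09-fold excess (adjusted p = 0.0425 by limma), and it was not called when any library was left out (adjusted p from 0.0751 to 0.136 by limma). Rpl6, beside Ptpn11, was higher from CAST (-0.46, SE 0.029, adjusted p = 0.000342 by limma). Gm42930, on the same strand as Ptpn11, overlaps it over 3260 bp and is not among the genes measured, so that strand cannot separate their reads.

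Socs3 and Pim1, both targets of STAT3, were the most abundant of the 10 genes with all exons counted. Socs3 (ENSMUSG00000053113, mm10 chr11:117966079-117970047, minus strand) encodes the inhibitor that closes the feedback loop on gp130. Its S129 allele had 37.7, 40.8, 42.1 and 32.7 RPKM in replicates 1 to 4. Its CAST allele had 37.2, 41.8, 43.2 and 36.0 RPKM. The ranges nearly coincided, and the fitted difference was -0.05 with an SE of 0.039 (95% interval -0.17 to 0.08, adjusted p = 0.349 by limma). Socs3 had 2.85 ± 0.13 times the level of Stat3 on the deposited scale and 3.96 ± 0.181 times with all exons (SD, n = 4).

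STAT factors bind palindromes whose outer letters can be written TTCNNNGAA, which reads the same on both strands. This motif was searched in the 250 bases before each RefSeq start (GRCm38.p6), because Socs3 and Pim1 are known STAT3 targets. It was found in 1 of the 12 windows of the 10 genes, that of Socs3, and in 7.02% of all 32851 windows. The Socs3 window, chr11:117969367-117969616 on the minus strand, is shown 5′ to 3′ with the motif in capitals.
Socs3: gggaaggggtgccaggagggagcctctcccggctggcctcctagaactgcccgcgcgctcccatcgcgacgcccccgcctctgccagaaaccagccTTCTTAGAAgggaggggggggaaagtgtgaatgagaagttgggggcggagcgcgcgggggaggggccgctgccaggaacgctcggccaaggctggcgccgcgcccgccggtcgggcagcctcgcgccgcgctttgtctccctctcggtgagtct
The motif ends 145 bases before the start. The whole window lies inside the span of Socs3 given above, since this RefSeq start lies downstream of the 5′ end of that span. The match is a description of letters, and binding was not measured here.

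Pim1 (ENSMUSG00000024014, mm10 chr17:29490753-29496112, plus strand), which encodes a serine/threonine kinase that favours survival, was the gene with a higher CAST allele. From S129, Pim1 had 25.1, 28.9, 27.7 and 21.1 RPKM in replicates 1 to 4. From CAST it had 30.5, 32.8, 32.4 and 23.0 RPKM. CAST was higher in each library, while replicate 4 was low for both alleles, so that the ranges overlapped. The difference was -0.20 with an SE of 0.039, a 1.15-fold excess of CAST (adjusted p = 0.0108 by limma). Without replicate 3 it was no longer called (adjusted p = 0.0504 by limma). The antisense gene Gm26885, which is not among the genes of the table used here, overlaps the 5′ part of Pim1 over 1173 bp.

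**Figure D2:**
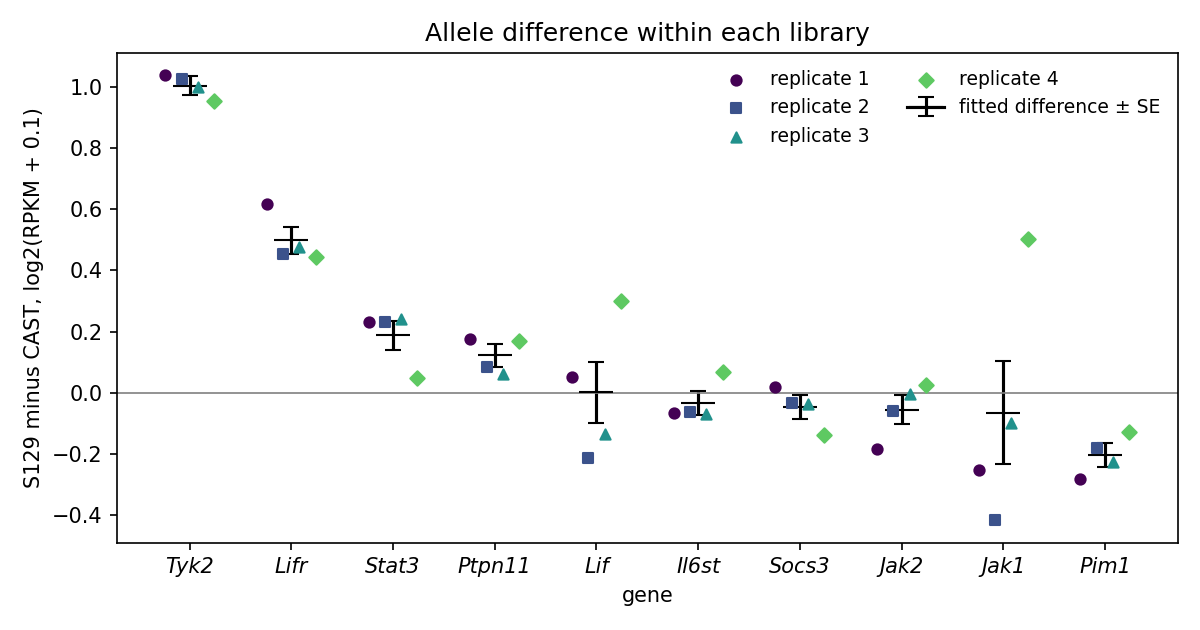
S129 minus CAST on the log2(RPKM+0.1) scale for each gene, with 1 point per library and the fitted difference ± SE in black. Tyk2 lies at 0.95 to 1.04 in all libraries and Lifr at 0.45 to 0.62, while Jak1 lies at 0.50 in replicate 4 and between -0.42 and -0.10 in the other libraries.

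Together, 5 of the 10 genes were called, at adjusted p under 0.05, against 62.7% of the 13341 genes tested. In the direction of S129 4 were called, against 31.4% of all genes tested, and in the direction of CAST 1 was called, against 31.3%. A difference of at least 2-fold was called for 1 gene, Tyk2, against 15.0%. With 10 genes, these counts set nothing apart from all genes tested. The absolute difference had a median of 0.09 on the log2 scale over the 10 genes and of 0.31 over all genes tested, and the signed difference had medians of -0.02 and -0.0034. The genes lie on 8 chromosomes, on which the median gene had between 49.7% and 51.2% of its reads from S129. Of the 13341 genes tested, 12869 were autosomal. On chromosomes 3 and 16 the median gene had 38.1% and 62.7% of its reads from S129. The shares and medians over all genes tested include these chromosomes and the genes off the autosomes, and were not computed without them. Of the 20 genes on either side of the 10 genes, 14 were tested, with 3 higher from S129, 5 higher from CAST and 6 not called. With the differences centred on the median of each chromosome, Tyk2, Lifr, Stat3 and Pim1 were called and Ptpn11 was not (adjusted p = 0.0582 by limma).

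The order of the 10 levels, from the mean of both alleles, was Lifr, Socs3, Pim1, Ptpn11, Stat3, Il6st, Tyk2, Jak2, Lif and Jak1 as deposited. After Lifr, the deposited means were 38.9 ± 3.78 RPKM for Socs3, 27.7 ± 3.98 for Pim1, 17.9 ± 2.08 for Ptpn11 and 13.7 ± 1.19 for Stat3 (SD, n = 4). They were 11.1 ± 0.773 RPKM for Il6st, 8.30 ± 0.537 for Tyk2, 3.24 ± 0.259 for Jak2, 2.86 ± 0.185 for Lif and 2.42 ± 0.21 for Jak1 (SD, n = 4). The feedback and target genes thus stood above Stat3, and Jak1, Jak2 and the ligand formed the low end. Each of the 9 genes with a lower neighbour exceeded it in 4 of 4 libraries. Of these pairs, 7 had ranges that did not overlap, the exceptions being Jak2 with Lif and Lif with Jak1. The pairs, here and with all exons below, were taken from the order of the same means, which set the higher gene of each pair beforehand. The exact sign-flip permutation test, two-sided, gave each pair the smallest p that 4 libraries allow, 2 of 16 sign patterns, before and after adjustment over the 9 pairs, so that it cannot pass 0.05 here. Since reads without a SNP are not counted, a gene with fewer SNPs per length has a lower RPKM. The part of SNP number in this order and in the ratios between genes was not tested.

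With all annotated exons as the length, the order was Socs3, Pim1, Ptpn11, Lifr, Il6st, Stat3, Tyk2, Jak2, Lif and Jak1. The means were then 34.4 ± 3.34 RPKM for Socs3, 21.7 ± 3.12 for Pim1, 13.4 ± 1.56 for Ptpn11, 8.70 ± 0.604 for Il6st and 8.67 ± 0.758 for Stat3 (SD, n = 4). Tyk2 followed at 5.37 ± 0.348 RPKM, Jak2 at 3.24 ± 0.259, Lif at 2.65 ± 0.171 and Jak1 at 1.64 ± 0.143 (SD, n = 4). Lifr thus moved from the top to the middle of the order, beside Il6st. In 8 of the 9 neighbouring pairs the higher gene was higher in every library, and Il6st with Stat3 was the exception, with a difference of 0.0064 on the log2 scale and Il6st higher in 2 of 4 libraries. The ranges overlapped for that pair and for Lifr with Il6st.

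**Figure D3:**
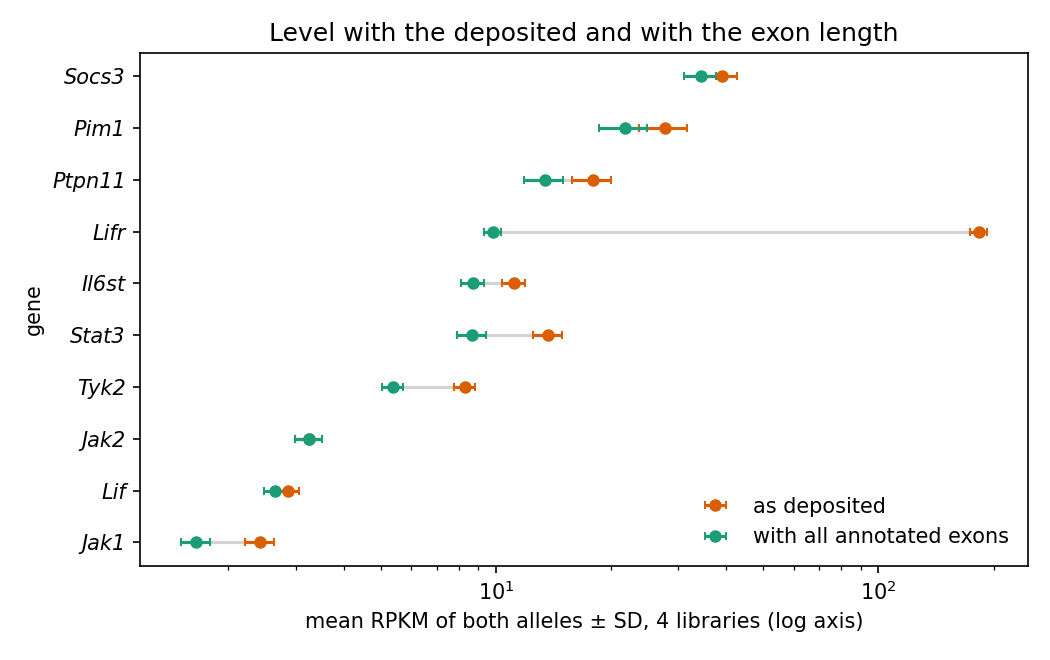
Mean RPKM of both alleles ± SD over 4 libraries, on a log axis, as deposited (orange) and divided by the length of all annotated exons (green). Lifr goes from 183 to 9.81 RPKM, while Jak2, whose deposited length of 5030 bp equals that of all its exons, has the same value on both scales.

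In each replicate, the median shift of the 10 genes from the other libraries had the direction of that of all genes tested. Single genes departed from it, as Lifr in replicate 2, at -0.03 on the log2 scale against 0.07 for all genes tested. The level was lowest in replicate 4 for 8 of the 10 genes, against 53.5% of all genes tested, and lowest in replicate 1 for Stat3 and Tyk2. It was highest in replicate 3 for 8 genes, against 39.7% of all genes tested. All 10 were below the mean of the other libraries in replicate 4, with a median of -0.12 on the log2 scale against -0.13 for all genes tested. Pim1 was lowest there, at 74.6% of the mean of the others, followed by Ptpn11 at 81.4% and Socs3 at 84.8%. Replicate 4 also had the fewest reads, and the fibroblast marker sum was highest in replicate 3, as above. The embryonic stem cell marker sum moved the other way, with 9157, 8265, 7972 and 9557 RPKM in replicates 1 to 4. Most of this sum came from 1 gene, Dppa5a, with 7111 ± 907 RPKM (SD, n = 4). The sum therefore does not give the direction of the other embryonic stem cell markers, which was not examined by library. The part of depth and of the marker sums in the levels was not tested.

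**Figure D4:**
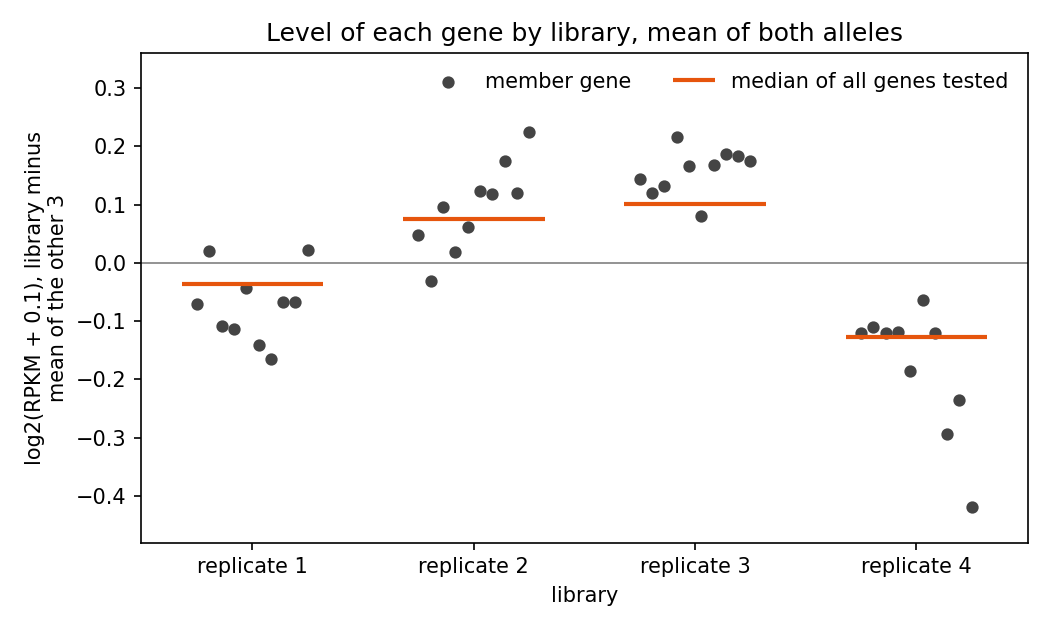
Level of each gene in a library minus the mean of the other 3 libraries, on the log2(RPKM+0.1) scale, with points for the 10 genes and an orange line for the median of all genes tested. In replicate 4 all 10 points lie below 0, around the median of -0.13 for all genes.

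Other genes of the pathway were examined in 6 lists with 64 genes, of which 49 passed the filter on low values. In these lists 12 genes were higher from S129, 17 were higher from CAST and 20 were not called, so that 59.2% were called, against 62.7% of all genes tested (31.4% higher from S129 and 31.3% higher from CAST), and the median difference was -0.03. The calls were 13 and 14 after centring on each chromosome. The counts of single lists given next are to be read against the same shares. Of the 10 other ligands of the gp130 family, 3 passed the filter, among them Ctf1 (cardiotrophin 1) at 2.43 ± 0.0682 RPKM and Il11 at 1.92 ± 0.188 RPKM (SD, n = 4), so that the level of Lif, at 2.65 RPKM with all exons, lay above those of Ctf1 and Il11, at 1.80 RPKM each on the same scale. Ctf1 was higher from S129, by 0.56 (SE 0.133, adjusted p = 0.0214 by limma), Osm was higher from CAST, and Il11 was not called. Of the 6 other receptor chains 1 passed the filter, Il11ra1, with 1.11 ± 0.13 RPKM, while Il6ra, the chain that binds interleukin 6, had 0.422 ± 0.0822 RPKM (SD, n = 4). All 6 were under 1 RPKM with all exons, below Lifr and Il6st on the same scale.

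Among the 7 other Janus kinases and STAT factors, 2 were higher from S129, 1 was higher from CAST and 4 were not called. Stat2, a STAT of the interferon pathway, had a difference of 1.04 (SE 0.05, adjusted p = 0.00015 by limma), close in size to that of Tyk2. Its deposited level of 19.3 ± 0.996 RPKM also rests on a short length, 736 bp, and was 2.40 ± 0.124 RPKM with all exons (SD, n = 4). Stat6 had 10.8 ± 0.472 RPKM (SD, n = 4) and a difference of 0.01 (adjusted p = 0.936 by limma).

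Of 15 other SOCS and PIAS inhibitors and phosphatases, 14 were tested, with 3 higher from S129, 5 higher from CAST and 6 not called. Socs2 was higher from S129 by 0.54 (SE 0.036, adjusted p = 0.000384 by limma), unlike Socs3, though the difference between the genes was not tested. Socs6 had 49.3 ± 6.40 RPKM over a length of 715 bp and 3.10 ± 0.403 RPKM with all exons (SD, n = 4), so that it was above Socs3 as deposited and below it with all exons. Pias3 was higher from CAST by 1.29 in size (SE 0.314, adjusted p = 0.0225 by limma), from 364 reads, and was not called after centring on its chromosome (-0.57, adjusted p = 0.184 by limma).

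Of the 10 adaptors beside Ptpn11, 9 were tested, with 2 higher from S129, 4 higher from CAST and 3 not called. Gab1, a docking protein for SHP2, had 55.0 ± 4.30 RPKM (SD, n = 4) and a difference of 0.11 (SE 0.038, adjusted p = 0.0678 by limma). After centring on its chromosome, the difference of Gab1 was 0.34 and was called higher from S129 (adjusted p = 0.00226 by limma). Nras, at 45.4 ± 2.31 RPKM (SD, n = 4), and Shc1 lie on chromosome 3, whose median gene had 38.1% of its reads from S129. Their differences were -0.74 and -1.20, and became -0.02 (adjusted p = 0.686 by limma) and -0.48 (adjusted p = 0.000591 by limma) after centring on the chromosome. Grb2, named here after its values were seen, had 5 reads in all, and reads that cover no SNP are not part of that number.

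Of the 16 STAT3 targets listed besides Socs3 and Pim1, 15 were tested, with 4 higher from S129, 6 higher from CAST and 5 not called, and Pramel7 was listed at 0. Tfcp2l1, a self-renewal factor downstream of STAT3, had 583 ± 37.6 RPKM over a length of 478 bp and 29.5 ± 1.90 RPKM with all exons (SD, n = 4), and was higher from S129 by 0.74 (SE 0.038, adjusted p = 0.000179 by limma). Junb had 97.1 ± 5.46 RPKM over a length of 492 bp and 20.8 ± 1.17 RPKM with all exons (SD, n = 4), and was higher from CAST (-0.29, adjusted p = 0.00407 by limma), which was not called after centring on its chromosome (-0.06, adjusted p = 0.296 by limma). Klf4, another target that supports self-renewal, had 63.3 ± 7.66 RPKM over a length of 859 bp and 17.8 ± 2.16 RPKM with all exons (SD, n = 4), and a difference of 0.07 (adjusted p = 0.119 by limma). Myc was higher from CAST (-0.62, SE 0.031, adjusted p = 0.000177 by limma). Mcl1, a survival gene on chromosome 3, had a difference of -1.12 (SE 0.04, adjusted p = 6.29e-05 by limma) and of -0.40 after centring. Pim2, a relative of Pim1 on the X chromosome, had 22.4 RPKM from S129 and 0.00962 RPKM from CAST. A male cell has its X from the mother, so that no CAST copy of Pim2 is present. Pim2 is nonetheless counted among the genes called higher from S129, in this list and in the lists together.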

How the data were processed

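RNAseq of 4 libraries of untreated F123-ESCs was used. Reads were cleared of ribosomal RNA by the authors, who trimmed them with Trimmomatic 0.40, aligned them by STAR to mm10 masked at SNPs, divided them by SNPsplit, and deposited RPKM per gene and allele, which are the values used here. They also deposited means over the libraries and log10 of these, which were not used. The counting program, its strand setting and the annotation are not given in the sources used here. The 10 genes and the lists were chosen with earlier results of these data known.

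Genes were matched to GENCODE M21 (mm10) by identifier. Steps between the RPKM of a column gave the total and the lengths used, within 0.02 of a whole read or a relative 2e-07; 99.5% of the 20243 genes above 0 gave whole reads. For Pim1 no annotated length did, and the smallest that did, 2638 bp, was taken, so that its reads are the fewest possible. Reads on genes were 95.4% to 96.9% of the totals. Intervals of read shares are exact at 95% and cover counting error only. The 95% intervals of fitted differences are the difference ± a t quantile times the limma SE, and reflect the spread between libraries. Their t quantile has the degrees of freedom of the 4 libraries alone, so that they are wider than the limma test implies.

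Alleles were compared with limma 3.58.1 in R 4.3.3 on S129 minus CAST of log2(RPKM+0.1) within each library, with an intercept, for 13341 genes with at least 1 RPKM as the sum of the allele means and Benjamini-Hochberg adjustment over all of them. A fold on this scale understates the change of low genes. Pairing comes from both values being reads of 1 library, and deviations from the allele means correlated at 0.105 to 0.195 within a library and -0.155 to 0.14 between libraries over these genes. Nothing states that the replicates are separate cultures, so that p-values measure only the spread between these libraries. Neighbouring levels were compared by the exact sign-flip test, and libraries by Dixon's criterion (0.829 for 4 values).

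Alternatives were other pseudocounts (1 and 0.01 RPKM), no filter or a minimum of 5 RPKM, no replicate block, centring on the median autosomal gene, a variance trend, whole reads not scaled to the totals, and each replicate left out; for levels, also each allele alone, the median of the libraries, values rescaled to 1 sum over autosomal genes, and lengths of all exons. Both centring on each chromosome and the order with all exons were added after seeing the data. The named genes are the 10 members, the 2 with the highest mean RPKM of each wider list, those called with at least a 2-fold difference, and Klf4, Tfcp2l1 and Myc, with genes beside or overlapping a member where a result turns on them. The recovery and limma steps were tested on simulated data.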

Additional observations from a re-analysis of the deposited data

Results flagged for a closer look

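Replicate 4 stood apart from the other libraries in the allele difference of 2 genes. For Il6st, S129 minus CAST on the log2(RPKM+0.1) scale was 0.0683 in replicate 4 and between -0.07 and -0.06 in replicates 1 to 3. For Stat3 it was 0.0476 in replicate 4 and between 0.23 and 0.24 in the others. In both, the gap to the nearest library divided by the whole range was above Dixon's critical value for 4 libraries at the 95% level. The level and the allele difference of the 10 genes gave 20 tested values, and chance sets apart about 5% of such groups. The share of S129 reads in replicate 4 had exact 95% Clopper-Pearson intervals of 50.4% to 54.0% for Il6st and 49.9% to 53.8% for Stat3. Without replicate 4 the difference of Stat3 was 0.23 (adjusted p = 0.00964 by limma). Replicate 4 has the fewest reads, and the part of depth in these values was not tested.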

How the results depend on the processing

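Tyk2 (0.90 to 1.07) and Lifr (0.46 to 0.55) kept their direction and their call in all 13 alternatives run for the allele difference. The number of genes called higher from S129, 4 of 10, was 2 with no filter on low values, where Stat3 had an adjusted p = 0.0533 by limma, 2 without the replicate block, and 2 to 3 when a replicate was left out. The number called higher from CAST, 1 of 10, was 0 without the replicate block, where the adjusted p of Stat3, Ptpn11 and Pim1 by limma was 0.147, 0.43 and 0.273, and 0 to 1 when a replicate was left out. Small differences changed sign, all uncalled. Lif was -0.000585 with a pseudocount of 1 RPKM and -0.0982 to 0.0732 with a replicate left out. Jak1 was -0.25 to 0.0518 with a replicate left out. Il6st was 0.0234 and Socs3 0.00813 with whole reads in place of RPKM and no scaling to the totals. After centring on each chromosome, Il6st was 0.0145 and Jak2 0.0116. With all exons, Lifr minus Socs3 was -1.79 and Stat3 minus Il6st -0.00639 on the log2 scale, and from the S129 allele alone Il6st minus Tyk2 was -0.0142. The cause was not tested, apart from the lengths. The values of Jak1, Jak2 and Lif rest on 152 to 472 reads per allele and library.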
